A study of Mus musculus with 18 samples.

Results

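Gasdermins are proteins of the skin, gut and immune cells whose amino-terminal part, once a protease has cut it free, inserts into membranes and forms pores. Gsdmd is the executioner of pyroptosis, the lytic death that follows inflammasome activation, and through its pores interleukin-1 family cytokines leave the cell. The Gsdma genes are known from differentiating keratinocytes, sebaceous glands and the hair follicle, and dominant mutations of Gsdma3 cause hair loss in mice. The Gsdmc genes are known from stratified epithelia and the gut. The mouse carries several copies of Gsdma and Gsdmc where humans carry 1 of each, and all 8 members listed by symbol were found in the deposited expression table of 23951 genes, namely Gsdma, Gsdma2, Gsdma3, Gsdmc, Gsdmc2, Gsdmc3, Gsdmc4 and Gsdmd. Of the 8 members, 6 reached 1 FPKM (read fragments scaled by transcript length and by library size) in at least 3 of the 18 libraries and were tested, while Gsdma2 and Gsdmc4 did not and are described by value.

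The libraries came from ear skin cells sorted at day 7 after tamoxifen in a mouse model of psoriasis-like disease. DKO* mice carry floxed JunB (f/f) and floxed c-Jun (f/f) alleles, K5-Cre-ERT, which is a tamoxifen-activated Cre under the basal keratinocyte promoter of keratin 5, and the mT/mG reporter, which turns from membrane Tomato to membrane GFP in cells where Cre has acted. Control mice (Co) also carried Cre and mT/mG but were wild-type (+/+) or heterozygous (+/f) for both genes, and males and females of mixed background were given 4 daily injections of 2 mg tamoxifen at 8 weeks of age. CD45-negative cells with high CD49f were split into CD34+ hair follicle stem cells (HF-SCs) and CD34- basal keratinocytes (b-KCs), and in DKO* mice also into mutant GFP and non-mutant Tom fractions. Each of the 6 groups held 3 mice. Co libraries of both cell types came from mice 810, 825 and 828, and the 4 DKO* populations came from mice 814, 815 and 817, so GFP and Tom of both cell types share their mice and the comparisons with Co share the Co libraries.

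Low FPKM values implied 16530000 to 26300000 reads per library, and the value that 3 reads are worth is taken as the floor of detection, which covers counting error only. The targeted genes were lower in every GFP library than in every Co library of the same cell type. Jun fell from a mean of 983 to 62.8 FPKM in HF-SCs and from 952 to 49.6 in b-KCs, and Junb from 447 to 62.5 and from 749 to 59.6. Cd34 separated the sorts, with 161 to 889 FPKM in the 9 HF-SC libraries and 0.341 to 2.53 in the 9 b-KC libraries. Some defining keratins were listed at 0 where other markers of the same cells were high, Krt5 being at 2299 to 7318 FPKM in all 18 libraries. Krt15 was listed at 0 in the Co HF-SC library of mouse 828 and Krt14 in the GFP b-KC library of 817 and the Tom b-KC libraries of 814 and 817. Endothelial transcripts stood out in Tom HF-SCs, where the summed FPKM of 8 markers was 410 to 1267 against 47.0 to 77.4 in Co HF-SCs. CD34, on which HF-SCs were sorted, is also a surface marker of endothelium.

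The members lie at 3 places in the genome (NCBIM37, the build also named mm9). Gsdma3, Gsdma2 and Gsdma follow each other on the plus strand of chromosome 11 from 98487674 to 98539022, a stretch of 51.3 kb. Gsdmc, Gsdmc2, Gsdmc3 and Gsdmc4 lie on the minus strand of chromosome 15 from 63607526 to 63734491, over 127.0 kb, and Gsdmd lies alone on the plus strand of the same chromosome from 75692769 to 75697834.

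How far reads tell these copies apart bears on each value. The coding sequences of Gsdmc2 and Gsdmc3 were 97.1% identical over their aligned bases, those of Gsdmc2 and Gsdmc4 93.5%, and Gsdmc was 85.9% to 87.1% identical to the other Gsdmc copies. The 3 Gsdma copies were 88.6% to 89.5% identical to each other, and Gsdmd was at 46.9% to 52.0% against every other member. The start of the coding sequence, bases 1 to 51, is shown for the Gsdmc copies because a 51-base read from it cannot be assigned among Gsdmc2, Gsdmc3 and Gsdmc4 (GENCODE M1 models on NCBIM37, coding strand, capitals at the 7 positions that differ among the 4 genes).
Gsdmc: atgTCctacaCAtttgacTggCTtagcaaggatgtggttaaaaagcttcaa
Gsdmc2: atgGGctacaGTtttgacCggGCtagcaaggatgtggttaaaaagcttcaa
Gsdmc3: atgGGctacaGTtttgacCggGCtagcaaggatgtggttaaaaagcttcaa
Gsdmc4: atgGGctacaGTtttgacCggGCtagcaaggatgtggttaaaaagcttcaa

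The stretch where Gsdmc2, Gsdmc3 and Gsdmc4 differ most from each other is shown because its reads do separate the copies. It has 14 positions that differ among these 3, and no others that differ among the 4. It starts at coding base 828 in Gsdmc, 819 in Gsdmc2 and Gsdmc3 and 825 in Gsdmc4.
Gsdmc: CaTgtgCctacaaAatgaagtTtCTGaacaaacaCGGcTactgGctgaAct
Gsdmc2: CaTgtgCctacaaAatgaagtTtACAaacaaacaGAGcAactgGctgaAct
Gsdmc3: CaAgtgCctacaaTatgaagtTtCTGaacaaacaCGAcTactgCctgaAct
Gsdmc4: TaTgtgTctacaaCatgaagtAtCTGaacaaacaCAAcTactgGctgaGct

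Over whole transcripts, 42.4% of the 51-base windows of Gsdmc2, 46.0% of those of Gsdmc3 and 37.9% of those of Gsdmc4 occur letter for letter in another member, against 16.1% for Gsdmc, 5.47% to 9.80% for the Gsdma copies and 0% for Gsdmd. With the 2 mismatches that the alignment allowed, the share rose to 71.8% for Gsdmc2, 81.6% for Gsdmc3, 63.0% for Gsdmc4 and 29.5% for Gsdmc, to 26.8% for Gsdma, 37.8% for Gsdma2 and 39.0% for Gsdma3, and stayed at 0% for Gsdmd. The values of Gsdmc2, Gsdmc3 and Gsdmc4 are therefore uncertain as a split between copies, and those of Gsdmc and of the Gsdma copies, with the ratios between them, to a lesser extent. Gsdmc4, whose windows occur in Gsdmc2 at 28.4% and in Gsdmc3 at 28.5%, was above its floor in 3 of 18 libraries with a highest value of 0.359 FPKM, and was listed at 0 in 9.

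Gsdmc and Gsdmc2 had the largest changes in the family and ranked within the top 85 of 12751 genes by log2 change in every DKO* population, mutant and non-mutant alike. In Co HF-SCs, Gsdmc stood at 0.369, 0.135 and 0.155 FPKM in mice 810, 825 and 828. In GFP HF-SCs it stood at 40.5, 73.1 and 19.2 FPKM in mice 814, 815 and 817, and in Tom HF-SCs at 51.9, 33.0 and 19.8 FPKM. Every DKO* library was far above every Co library, and mouse 817 was lowest in both fractions. The ratio of mean FPKM to Co was 202 in GFP and 159 in Tom, and without mouse 810, the highest of Co, it was 305 and 241. The Co values implied about 18.1, 6.04 and 9.06 reads of Gsdmc, so the size of these ratios rests on few reads. On the log2(FPKM + 1) scale, which understates changes of genes with low FPKM, the rise was 5.03 ± 0.64 (SE) in GFP with adjusted p = 2.08e-05 (limma, Benjamini-Hochberg over 12751 genes, n = 3 mice per group). In Tom the rise was 4.78 ± 0.64 with adjusted p = 2.58e-05, and by size it ranked 28 of 12751 genes in Tom and 38 in GFP. In bulk libraries a change of RNA per cell and a change in the share of cells that express a gene cannot be told apart, here and for all results that follow.

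In b-KCs, Gsdmc started from a higher level. The Co libraries held 3.29, 0.853 and 1.19 FPKM, the GFP libraries 85.0, 103 and 22.0 FPKM and the Tom libraries 116, 188 and 34.7 FPKM. Again no DKO* library overlapped with Co, and 817 was lowest of its group. The rise was 4.51 ± 0.64 on the log2 scale in GFP (adjusted p = 1.06e-04, limma) and 5.16 ± 0.64 in Tom (adjusted p = 2.02e-05), with ratios of mean FPKM of 39.4 and 63.4. Without 810 these ratios were 68.6 and 110, and the Tom ratio was 42.2 without 815. The smaller ratio in b-KCs went with the higher Co level, and the test of whether HF-SCs and b-KCs changed differently was not passed for Gsdmc, with a difference of 0.51 for GFP (95% interval -1.41 to 2.44) and -0.37 for Tom (-2.30 to 1.55).

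Gsdmc2 followed the same course at lower FPKM. It was at or under the value of 3 reads in all 3 Co HF-SC libraries, with 0.0470, 0 and 0.0198 FPKM, so no ratio to Co is given there. GFP HF-SC libraries held 16.1, 14.2 and 7.79 FPKM and Tom HF-SC libraries 22.3, 23.9 and 5.90 FPKM. In b-KCs the Co libraries held 0.291, 0.210 and 0.261 FPKM, the GFP libraries 24.0, 28.9 and 13.1, and the Tom libraries 46.6, 50.4 and 15.7. All 12 DKO* libraries stood above all 6 Co libraries. The log2 rise was 3.69 ± 0.47 in GFP HF-SCs (adjusted p = 2.08e-05, limma), 3.96 ± 0.47 in Tom HF-SCs (8.24e-06), 4.13 ± 0.47 in GFP b-KCs (1.73e-05) and 4.78 ± 0.47 in Tom b-KCs (2.69e-06). With the mouse as a random block or with any 1 mouse left out, Gsdmc and Gsdmc2 passed in all 4 comparisons with Co.

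Gsdmc3 was listed at 0 in all 6 Co libraries and was detected in all 12 DKO* libraries. It stood at 1.46, 1.56 and 0.746 FPKM in GFP HF-SCs, at 2.14, 1.79 and 0.290 in Tom HF-SCs, at 2.31, 2.40 and 0.922 in GFP b-KCs and at 3.92, 4.71 and 0.684 in Tom b-KCs. Against a floor of 3 reads per library in Co, the mean was at least 12.6-fold higher in GFP HF-SCs, 14.2-fold in Tom HF-SCs, 19.9-fold in GFP b-KCs and 32.9-fold in Tom b-KCs. Its log2 rise was 1.15 ± 0.39 in GFP HF-SCs (adjusted p = 0.0296, limma), 1.17 ± 0.39 in Tom HF-SCs (0.0252), 1.48 ± 0.39 in GFP b-KCs (0.00798) and 1.85 ± 0.39 in Tom b-KCs (0.00148). The HF-SC calls were not stable, since leaving out any 1 mouse other than 817 put the adjusted p between 0.0801 and 0.0997 in GFP and between 0.0675 and 0.136 in Tom, and in GFP b-KCs it was 0.0515 without 815. With no filter on low values the GFP HF-SC call was lost as well (0.0505). Since 38.3% of its 51-base windows occur in Gsdmc2, how much of the Gsdmc3 value belongs to it was not tested.

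**Figure D1:**
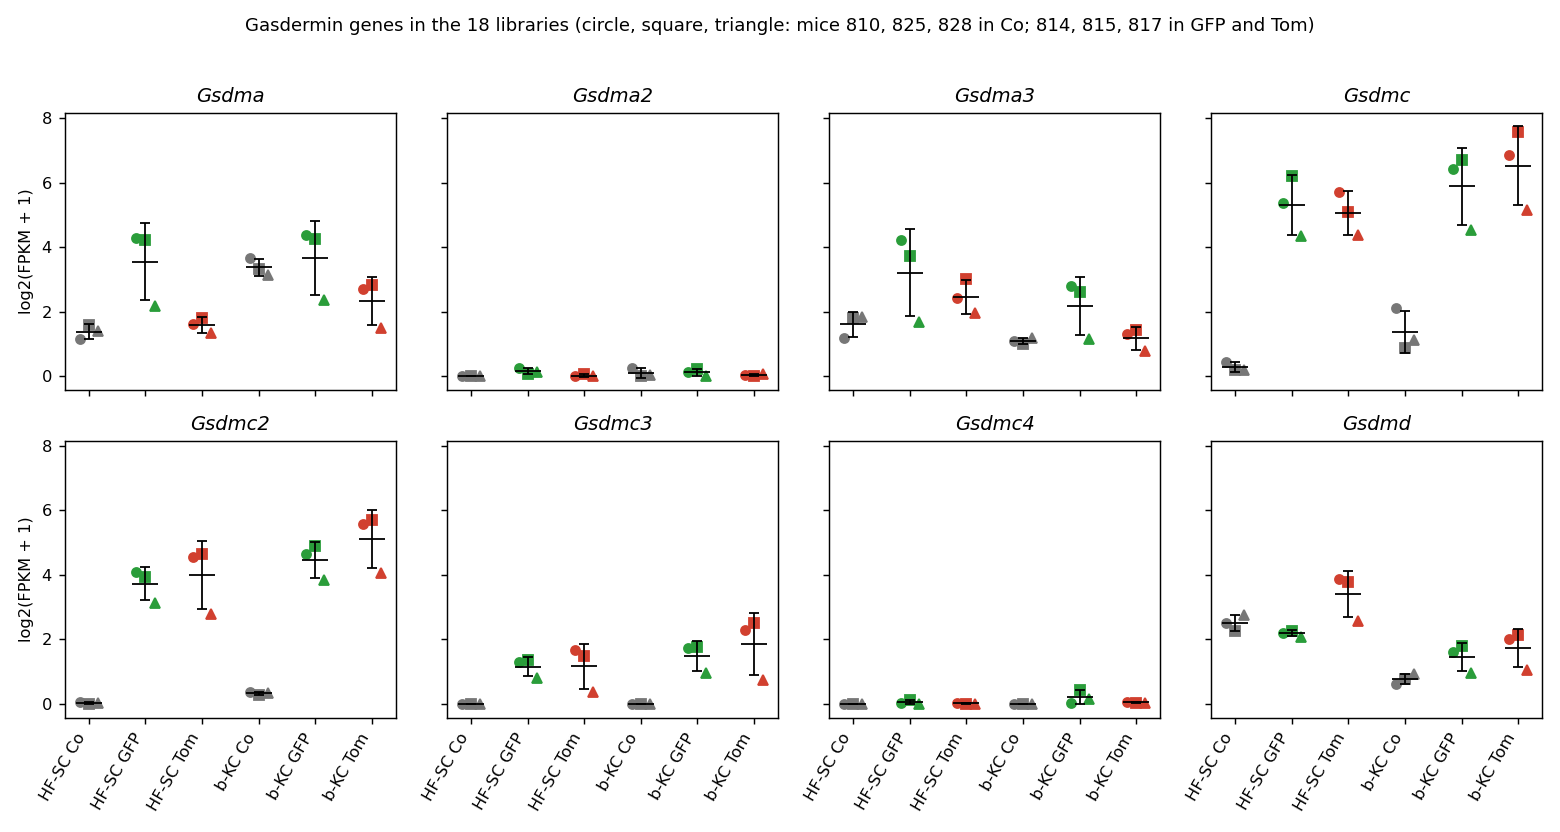
FPKM of the 8 gasdermins on a log2(FPKM + 1) axis in the 18 libraries, grouped on the horizontal axis by cell type and fraction; each symbol is 1 mouse, the horizontal bar the group mean of the log2 values and the whiskers 1 SD (n = 3). Gsdmc, Gsdmc2 and Gsdmc3 separate all DKO* libraries from all Co libraries, Gsdma2 and Gsdmc4 stay near 0, and the triangle of mouse 817 is the lowest DKO* symbol of each tested member.

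Among the Gsdmc copies, Gsdmc took most of the summed FPKM in each of the 18 libraries, from 56.3% to 100%. Gsdmc2 gave 16.0% to 40.7% and Gsdmc3 1.11% to 3.05% of that sum in the 12 DKO* libraries. The ratio of Gsdmc to Gsdmc2 ran from 1.38 to 5.13 in DKO* libraries, and the lowest and the highest were the Tom and GFP HF-SCs of mouse 815. Over the 18 libraries, the log2(FPKM + 1) values of Gsdmc and Gsdmc2 had a Pearson correlation of 0.98, those of Gsdmc and Gsdmc3 0.93 and those of Gsdmc2 and Gsdmc3 0.94, which describe libraries that share groups, mice and reads between copies.

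Gsdma had another pattern, with more FPKM in GFP than in Tom libraries of the same mouse and a Co level that differed by cell type. In Co, Gsdma held 1.22, 2.02 and 1.66 FPKM in HF-SCs and 11.6, 9.09 and 7.76 FPKM in b-KCs. The HF-SC libraries were all below the b-KC libraries, with a log2 difference of -1.99 ± 0.55 (adjusted p = 0.00711, limma). This call was lost without mouse 810, with adjusted p = 0.0726. All 7 suprabasal and granular markers and 3 of 4 tested sebaceous markers were also lower in Co HF-SCs, whereas 7 of 9 HF-SC markers were higher. The suprabasal sum was 674 to 881 FPKM in Co HF-SCs against 6758 to 8376 in Co b-KCs. The sebaceous sum (6 markers) was 2.15 to 3.05 against 31.4 to 57.8. The part of these markers in the Gsdma difference was not tested.

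In GFP HF-SCs, Gsdma held 18.4, 17.7 and 3.49 FPKM, all above Co, and in Tom HF-SCs 2.11, 2.51 and 1.52 FPKM, which overlapped with Co. The mean in GFP was 8.09 times that in Co, a log2 rise of 2.17 ± 0.55 with adjusted p = 0.00590 (limma), whereas Tom differed from Co by 0.21 (95% interval -0.97 to 1.39, adjusted p = 0.781). The GFP call moved to adjusted p = 0.0527 without mouse 815. The direct comparison of GFP HF-SCs with Tom HF-SCs gave 1.96 ± 0.55 (adjusted p = 0.0367), with GFP higher in 3 of 3 mice, and was lost without 814 (0.301) or 815 (0.341), when no filter on low values was set (0.0555) and in a fit of the groups compared (0.1445).

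In GFP b-KCs, Gsdma held 19.97, 18.3 and 4.12 FPKM and overlapped with Co, since mice 814 and 815 were above all Co libraries and 817 was below them. In Tom b-KCs it held 5.47, 6.12 and 1.80 FPKM, all below Co. Neither difference passed, with 0.30 (95% interval -0.88 to 1.47, adjusted p = 0.693, limma) for GFP and -1.04 (-2.21 to 0.14, adjusted p = 0.137) for Tom. Without 817 they were 0.96 (adjusted p = 2.69e-04) and -0.61 (0.00623), and the Tom difference also passed in a fit of the groups compared (0.0410). GFP was again higher than Tom in 3 of 3 mice, by 1.34 on the log2 scale, with adjusted p = 0.330 in the fit of all groups, 0.0250 with the mouse as a fixed block and 1.59e-04 without 817. The change from Co to GFP of HF-SCs minus that of b-KCs was 1.87 (95% interval 0.21 to 3.54, adjusted p = 0.130), which passed with the mouse as a random block (adjusted p = 0.0259).

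Gsdma3 held 1.25, 2.46 and 2.61 FPKM in Co HF-SCs, 17.7, 12.2 and 2.19 in GFP HF-SCs and 4.42, 7.03 and 2.86 in Tom HF-SCs. In GFP, mouse 817 lay inside the Co range while 814 and 815 were well above it, and in Tom all 3 mice were above Co. The change was 1.60 ± 0.53 in GFP (adjusted p = 0.0260, limma) and 0.86 ± 0.53 in Tom (0.205). The GFP call was kept without 817 and lost without any 1 of the other 5 mice, with adjusted p from 0.0582 to 0.164, and in a fit of the groups compared (0.0646), and the Tom value passed without 817 (1.12, adjusted p = 7.35e-04). In b-KCs, Co libraries held 1.14, 1.02 and 1.26 FPKM, GFP libraries 5.99, 5.07 and 1.21, and Tom libraries 1.501, 1.72 and 0.718. The GFP b-KC libraries of 814 and 815 were above Co and that of 817 was inside its range, with a difference of 1.09 (adjusted p = 0.111) that reached 1.61 (4.52e-05) without 817. Gsdma2, the third copy, was at most 0.207 FPKM, was above its floor in 5 of 18 libraries and was listed at 0 in 8.

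The Gsdma and Gsdma3 proportions differed by cell type. The ratio of Gsdma to Gsdma3 FPKM was 6.16 to 10.2 in Co b-KCs and 0.634 to 0.970 in Co HF-SCs, and it was 2.50 to 3.64 in the 6 DKO* b-KC libraries. In HF-SCs it was 1.04 to 1.59 in GFP and 0.357 to 0.532 in Tom, so that the GFP, Co and Tom libraries formed 3 ranges that did not overlap. Some marker lists moved with the Gsdma values in GFP HF-SCs, and in Tom HF-SCs and b-KCs not all did. The summed FPKM of 6 sebaceous markers was 29.2, 36.1 and 1.49 in GFP HF-SCs of mice 814, 815 and 817 and 2.15 to 3.05 in Co HF-SCs. The sum of 7 suprabasal and granular markers was 1698 to 3462 in GFP HF-SCs against 674 to 881 in Co HF-SCs, that of 4 upper follicle markers 1268 to 2784 against 311 to 324, and mouse 817 had the lowest value of its group in each of these sums. In Tom HF-SCs, where Gsdma overlapped with Co, the suprabasal sum was 1629 to 2083 (4 of 7 markers higher and 1 lower), the upper follicle sum 692 to 1008 (1 of 4 higher and 1 lower) and the sebaceous sum 4.03 to 5.00, all above Co as well. The sum of 5 melanocyte markers was 11.3, 11.6 and 6.36 in GFP HF-SCs against 2.52 to 4.67 in Co HF-SCs, with 3 of 4 tested markers higher, and of 9 HF-SC markers 4 were lower in GFP HF-SCs and 6 in Tom HF-SCs than in Co. In b-KCs the sebaceous sum was lower in GFP, at 26.2, 20.5 and 5.22, than in Co, at 31.4 to 57.8, although Gsdma of 814 and 815 was above Co. The suprabasal sum was 4845 to 6855 in GFP b-KCs against 6758 to 8376 in Co b-KCs, and the upper follicle sum 1409 to 5269 against 748 to 978. Single markers of the upper follicle list went both ways in GFP b-KCs, with 2 of 4 higher, 1 lower and a median log2 change of 0.15. In Tom b-KCs, where Gsdma was below Co, the sebaceous sum was 5.49, 8.37 and 2.74, with 3 of 4 tested markers lower. The upper follicle sum was 618 to 1436 there, with 1 of 4 markers higher and 2 lower. The suprabasal sum was 3864 to 7005, with 2 of 7 lower. The part of all these markers in the Gsdma and Gsdma3 values was not tested.

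**Figure D2:**
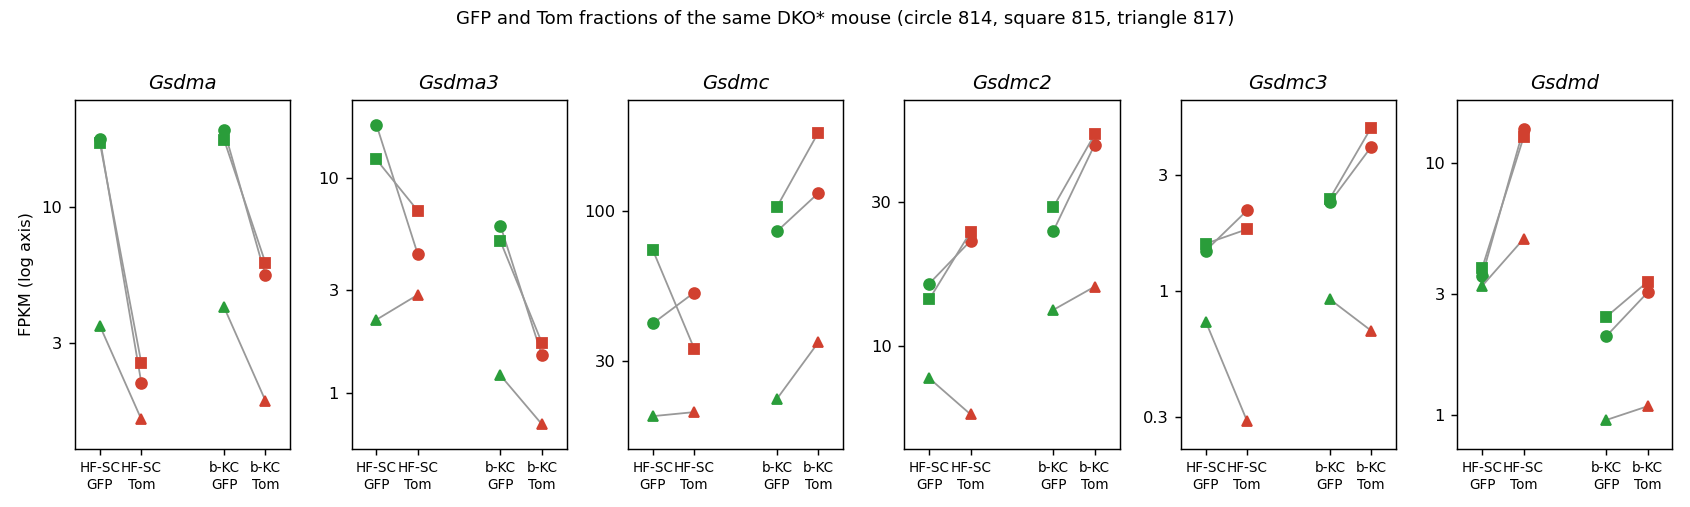
FPKM (log axis, own range in each panel) of the 6 tested gasdermins in the GFP and Tom fractions of HF-SCs and b-KCs, with a line joining the fractions of the same DKO* mouse. Gsdma falls from GFP to Tom along all 6 lines and Gsdmd rises along all 6, while the lines of Gsdmc go both ways in HF-SCs and upward in b-KCs.

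Gsdmd had its highest values in HF-SCs, above all in their Tom fraction. In Co it held 4.70, 3.74 and 5.71 FPKM in HF-SCs and 0.534, 0.696 and 0.883 FPKM in b-KCs. All HF-SC libraries were above all b-KC libraries, with a mean 6.69 times as high and a log2 difference of 1.74 ± 0.33 (adjusted p = 3.76e-04, limma), in 3 of 3 mice. It was the reverse of Gsdma, which was higher in Co b-KCs. Markers of other cells differed in the same direction as Gsdmd, with all 5 tested fibroblast markers and all 8 endothelial markers higher in Co HF-SCs. The fibroblast sum (6 markers) was 45.9 to 95.5 FPKM in Co HF-SCs against 4.28 to 6.16 in Co b-KCs and the endothelial sum 47.0 to 77.4 against 0.964 to 2.06, and their part in the Gsdmd difference was not tested.

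In DKO* HF-SCs, Gsdmd held 3.56, 3.82 and 3.24 FPKM in GFP and 13.6, 12.6 and 4.98 FPKM in Tom. GFP lay within or just under the Co range, while Tom was above Co in 814 and 815 and within it in 817. Tom was raised by 0.90 ± 0.33 over Co (adjusted p = 0.0340, limma), and GFP differed from Co by -0.32 (95% interval -1.01 to 0.37, adjusted p = 0.464). The Tom call was lost without any 1 mouse other than 817 (adjusted p 0.0533 to 0.190), with a pseudocount of 0.1 (0.0704), with no filter on low values (0.0558) and in a fit of the groups compared (0.0908). GFP was lower than Tom in 3 of 3 mice, by 1.22 ± 0.33 (adjusted p = 0.0262), which became 0.0663 with the mouse as a fixed block, 0.0622 with a pseudocount of 0.1, 0.1435 in a fit of the groups compared and 0.292 and 0.287 without 814 and 815. The endothelial sum moved with these values, at 1267 FPKM in 814, 1221 in 815 and 410 in 817 for Tom HF-SCs and at 16.1, 25.9 and 1.03 for GFP HF-SCs. All 8 endothelial markers passed as higher in Tom HF-SCs and as lower in GFP HF-SCs than in Co, Pecam1 with a mean of 170 FPKM in Tom and 10.7 in Co. Their part in the HF-SC Gsdmd values was not tested.

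In b-KCs, where the endothelial sum was 5.46 FPKM or less in each of the 9 libraries, Gsdmd held 2.05, 2.44 and 0.953 FPKM in GFP and 3.05, 3.37 and 1.08 in Tom, and every DKO* library was above every Co library. The ratio of means to Co was 2.58 in GFP and 3.55 in Tom. Tom passed at 0.97 ± 0.33 (adjusted p = 0.0236, limma), while GFP at 0.69 did not (95% interval -0.002 to 1.38, adjusted p = 0.10). The Tom call was lost without 810 (0.0822), 814 (0.101), 815 (0.134) or 825 (0.0635), and the GFP value was 0.93 with adjusted p = 1.73e-04 without 817. GFP also passed with a pseudocount of 0.1 (0.0390) and in a fit of the groups compared (0.0405). GFP and Tom of b-KCs differed by -0.28 (adjusted p = 0.907), with Tom higher in 3 of 3 mice. The change from Co to GFP of HF-SCs minus that of b-KCs was -1.01 (95% interval -1.98 to -0.03, adjusted p = 0.165), which passed with the mouse as a random block (0.0439) and in a fit of the groups compared (0.0318). The summed FPKM of 8 leukocyte markers was 5.03 to 9.22 in Co b-KCs. In mice 814, 815 and 817 it was 357, 502 and 288 in GFP b-KCs and 502, 1005 and 218 in Tom b-KCs. The part of these markers in the b-KC Gsdmd values was not tested.

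Counted over the 6 tested members, 5 rose in GFP HF-SCs, 4 in Tom HF-SCs, 3 in GFP b-KCs and 4 in Tom b-KCs against Co, and none fell. Many genes moved in these comparisons, since 18.5%, 22.3%, 20.3% and 22.6% of all tested genes rose at the same threshold and 20%, 22.1%, 21.3% and 23.3% fell. With adjusted p under 0.01 and a log2 change of 2 or more, the stricter threshold, the members that rose were 3 in GFP HF-SCs, namely Gsdma, Gsdmc and Gsdmc2, and 2 in each other comparison, namely Gsdmc and Gsdmc2, beside 2.43%, 3.61%, 1.29% and 1.25% of all tested genes. The median log2 change of the members was 1.89, 1.04, 1.28 and 1.41 in the same order, and that of all tested genes lay between -0.05 and -0.02. Gsdmc2 and Gsdmc3 reached 1 FPKM in no Co library and Gsdmc in 2 of 6, so these members passed the filter through the DKO* libraries where they were high, and the counts and medians are a description that the filter partly sets. The 2 members that were not tested for low FPKM are in none of these counts.

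**Figure D3:**
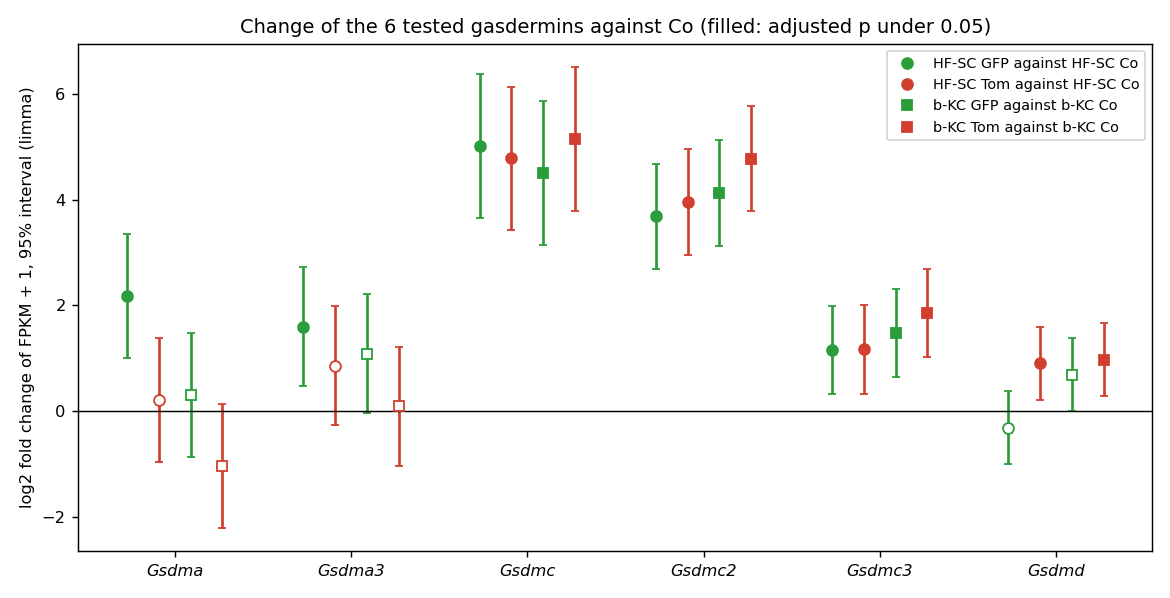
Change of the 6 tested gasdermins against Co of the same cell type, as the log2 fold change of FPKM + 1 with its 95% interval from limma (n = 3 mice per group), for HF-SCs (circles) and b-KCs (squares), GFP in green and Tom in red. Filled symbols passed an adjusted p under 0.05; Gsdmc and Gsdmc2 lie between 3.69 and 5.16 in all 4 comparisons, and Gsdma passed in HF-SC GFP alone.

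Between the fractions of the DKO* mice, 1 member (Gsdma) was higher and 1 (Gsdmd) lower in GFP HF-SCs than in Tom HF-SCs, where 8.63% of all tested genes passed, 2.83% as higher and 5.8% as lower. No member passed between GFP b-KCs and Tom b-KCs, where 1.71% of genes did, and 1 (Gsdma) was under 0.05 before adjustment in the limma fit, as were 11.5% of all tested genes. With all mice, no Gsdmc gene passed between mutant and non-mutant cells. For Gsdmc, GFP minus Tom was 0.24 in HF-SCs (95% interval -1.12 to 1.60) and -0.64 in b-KCs (-2.00 to 0.72), intervals that both leave room for a difference of either sign. Tom held more Gsdmc and more Gsdmc2 than GFP in 3 of 3 mice of b-KCs. For Gsdmc2 the b-KC difference was -0.65 (95% interval -1.65 to 0.35), and without 817 it was -0.85 with adjusted p = 0.00113. Without 817, Gsdmc2 also passed in HF-SCs (-0.58, adjusted p = 0.00523) and Gsdmc3 in b-KCs (-0.66, adjusted p = 0.00396), both lower in GFP. Higher in GFP without 817 were Gsdma3 in HF-SCs (1.25, adjusted p = 0.00186) and Gsdma (1.57, 1.59e-04) and Gsdma3 (1.32, 0.00428) in b-KCs. With all mice Gsdma3 differed between GFP and Tom by 0.74 in HF-SCs (95% interval -0.39 to 1.87, adjusted p = 0.489), higher in 2 of 3 mice, and by 1.00 in b-KCs (-0.13 to 2.13, adjusted p = 0.532), higher in 3 of 3.

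Between Co HF-SCs and Co b-KCs, 1 member (Gsdmd) was higher and 1 (Gsdma) lower in HF-SCs, in a comparison where 51.9% of all tested genes passed, 24.6% as higher and 27.3% as lower. Under the stricter threshold neither comparison held a member, beside 1.98% of genes for the fractions and 5.65% for Co. With the mouse as a fixed block, Gsdmc (-1.09, adjusted p = 0.00151), Gsdmc2 (-0.29, 0.0265) and Gsdma3 (0.51, 0.0229) passed as well, in a fit where 66.9% of all tested genes passed. No member passed the tests of a different change in HF-SCs and b-KCs in the limma fit, where 12.5% of all genes passed for GFP and 15.8% for Tom, and 2 and 0 members were under 0.05 before adjustment, beside 28% and 29% of all tested genes.

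The family as a whole changed its make-up. The 8 members summed to 7.58 to 10.1 FPKM in Co HF-SCs and 11.4 to 17.0 in Co b-KCs, and to 36.7 to 123 in GFP HF-SCs, 35.4 to 96.5 in Tom HF-SCs, 42.5 to 161 in GFP b-KCs and 54.8 to 255 in Tom b-KCs. In Co HF-SCs, Gsdmd gave 44.7% to 61.9% of the sum, and in Co b-KCs the Gsdma group gave 75.9% to 85.2%. The Gsdmc group gave 1.61% to 5.48% in Co HF-SCs and 8.96% to 21.0% in Co b-KCs, and it gave 59.3% to 75.4% in GFP HF-SCs, 72.6% to 79.1% in Tom HF-SCs, 79.8% to 85.2% in GFP b-KCs and 93.3% to 95.6% in Tom b-KCs. FPKM is scaled by transcript length, so these shares compare levels between genes per length.

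**Figure D4:**
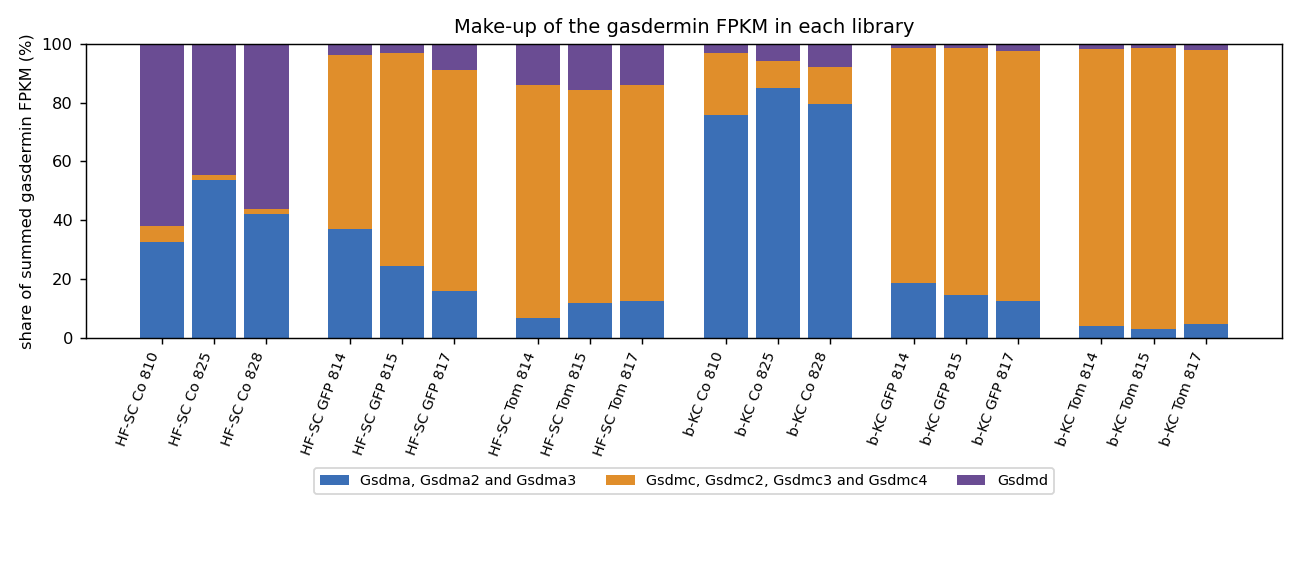
Share of the summed gasdermin FPKM (vertical axis, %) given by the Gsdma group, the Gsdmc group and Gsdmd in each of the 18 libraries (1 bar per library, labelled by group and mouse). Gsdmd or the Gsdma group leads in all 6 Co libraries and the Gsdmc group in all 12 DKO* libraries.

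Ordered by mean FPKM, Gsdmc ran from Tom b-KCs (113) over GFP b-KCs (70.1), GFP HF-SCs (44.2) and Tom HF-SCs (34.9) to Co b-KCs (1.78) and Co HF-SCs (0.219), and only the last 2 steps separated neighbours whose libraries did not overlap. Gsdma ran from GFP b-KCs (14.1), GFP HF-SCs (13.2) and Co b-KCs (9.48) to Tom b-KCs (4.46), Tom HF-SCs (2.05) and Co HF-SCs (1.63), and Co b-KCs and Tom b-KCs alone were neighbours without overlap. Gsdma3 had its highest mean in GFP HF-SCs (10.7) and its lowest in Co b-KCs (1.14), and each pair of neighbours overlapped. Gsdmd ran from Tom HF-SCs (10.4) over Co HF-SCs (4.71), GFP HF-SCs (3.54), Tom b-KCs (2.50) and GFP b-KCs (1.82) to Co b-KCs (0.704), and the last step alone was without overlap.

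The DKO* mice were not alike. Mouse 817 had the lowest value of the 3 DKO* mice in all 24 combinations of tested member and population, and 815 the highest in 16 of them. Among all tested genes, 11.6% were lowest in 817 in all 4 populations, 6.27% in 814 and 0.753% in 815. For Gsdmc, 817 still stood at 19.2 to 34.7 FPKM, above the highest Co value of 3.29.

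Transcripts that leukocytes express also rose in the DKO* libraries, and Gsdmc2 followed them. The summed FPKM of 8 leukocyte markers was 3.88 to 9.22 in the 6 Co libraries and 107 to 1005 in the 12 DKO* libraries. Most of it came from the antigen presentation genes Cd74 and H2-Aa, with means of 457 and 117 FPKM in Tom b-KCs. Of the 8 markers, 3 were tested, and 3 passed as higher in GFP HF-SCs and 2 in each other comparison with Co. The marker tested beside Cd74 and H2-Aa thus passed in GFP HF-SCs as well. Ptprc, which encodes the CD45 used to exclude leukocytes in the sort, was at most 0.946 FPKM, and in b-KCs at most 0.0636 FPKM. Cd3e was at most 0.210 FPKM and Itgax at most 0.0732. The sum of 4 neutrophil markers was 1.31 to 1.81 FPKM in Co and 6.39 to 10.5 in DKO* libraries. Most of it was Cxcr2, a chemokine receptor, which passed as higher in all 4 comparisons with Co, whereas Csf3r, the G-CSF receptor, was at most 0.367 FPKM and Retnlg, listed at 0 in Co, at most 2.19. The part of the leukocyte and neutrophil markers in the values of the Gsdmc genes and of Gsdmd was not tested. The 3 genes whose log2(FPKM + 1) values were most like those of Gsdmc2 over the 18 libraries were H2-Aa, H2-Ab1 and Cd74, with Pearson correlations of 0.98, 0.98 and 0.98. Most like Gsdmc were BC100530 (0.98), Stfa3 (0.98) and Klk13 (0.98), and among those most like Gsdmc3 were Grpr (0.97) and Fabp7 (0.96). Gsdma was closest to Wfdc5 (0.99), Il1f5 (0.96) and Awat1 (0.95), the last a wax synthase of sebaceous glands. Gsdma3 was closest to Mlph (0.92), Tmem229b (0.90) and Krt42 (0.90), and Gsdmd to Ttc12 (0.96), Irgm2 (0.95) and Ccl7 (0.94). These correlations describe 18 libraries in 6 groups that share mice, and the differences between groups set much of their size.

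The genes around gasdermins in the pyroptosis pathway were taken as 7 lists of 41 symbols, of which 23 genes were tested. Against Co, 10 rose and 0 fell in GFP HF-SCs, 11 rose and 1 fell in Tom HF-SCs, 7 rose and 0 fell in GFP b-KCs and 6 rose and 2 fell in Tom b-KCs, where 18.5%, 22.3%, 20.3% and 22.6% of all tested genes rose and 20%, 22.1%, 21.3% and 23.3% fell in the same order. Their median log2 change was 0.35, 0.73, 0.26 and 0.29, beside -0.05, -0.04, -0.03 and -0.02 for all tested genes.

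Of the 13 sensors and adaptors, 3 were tested. Aim2, a sensor of DNA in the cytosol, rose in all 4 populations, by 2.25, 1.55, 1.96 and 1.12 on the log2 scale in GFP HF-SCs, Tom HF-SCs, GFP b-KCs and Tom b-KCs (adjusted p = 1.09e-04, 0.00190, 5.19e-04 and 0.0145, limma). Nlrp10 rose by 1.40 and Pycard, the adaptor that links sensors to caspase-1, by 1.05 in GFP HF-SCs, and neither passed in the other 3 comparisons. The other 10, among them Nlrp3 and Nlrc4, did not reach the FPKM limit.

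Of the 8 proteases known to cut gasdermins, 4 were tested. Casp4, the caspase-11 that cuts Gsdmd, rose in all 4 populations, by 1.41, 2.47, 1.51 and 1.22 in the same order (adjusted p = 0.0251, 5.30e-04, 0.0176 and 0.0423). Its FPKM was 28.3, 17.7 and 3.55 in Tom HF-SCs of 814, 815 and 817 against 1.20 to 1.63 in Co HF-SCs. The endothelial sum of the same Tom HF-SC libraries, 1267, 1221 and 410 FPKM, was above Co in the same order of mice, and its part in the Tom HF-SC values of Casp4 and of the other pathway genes was not tested. Casp1, which cuts Gsdmd and interleukin-1 precursors, rose in GFP b-KCs by 1.28 (adjusted p = 0.0499) and in Tom b-KCs by 1.40 (0.0302). Casp8, which can cut Gsdmd and Gsdmc, rose in Tom HF-SCs by 0.91 (0.00196) and was lower in GFP HF-SCs than in Tom HF-SCs by 0.91 (0.00845). The leukocyte proteases Elane, Ctsg, Gzma and Gzmb did not reach the FPKM limit.

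Of the 5 cytokines and antagonists, Il1a had the largest rise in both GFP fractions. It stood at 78.7, 89.8 and 38.8 FPKM in GFP HF-SCs against 0.603 to 0.963 in Co HF-SCs, a log2 rise of 5.18 (adjusted p = 8.32e-08, limma), and at 38.9, 40.6 and 11.6 FPKM in GFP b-KCs against 2.33 to 3.30 in Co b-KCs, a rise of 2.85 (4.62e-05). GFP exceeded Tom, as for Gsdma, by 3.23 in HF-SCs (1.5e-05) and by 1.83 in b-KCs (0.0171). In Tom HF-SCs Il1a rose by 1.95 and in Tom b-KCs by 1.02. Il1b rose by 2.65, 2.83, 1.42 and 1.20 in the 4 populations, and its GFP HF-SC value of 19.02 FPKM was highest in mouse 817, the mouse with the lowest gasdermin values. Il1rn, the interleukin-1 receptor antagonist, rose by 3.37 in GFP HF-SCs and 2.31 in Tom HF-SCs, and Il18bp by 1.60 in Tom HF-SCs and 0.83 in GFP b-KCs. Il18 passed in none of the 4.

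Of the serpins, Serpinb1a, an inhibitor of neutrophil proteases and of caspase activation, rose in all 4 populations by 2.202, 2.40, 1.56 and 2.33. Serpinb9, the granzyme B inhibitor, rose by 2.09 in Tom HF-SCs and was lower in GFP HF-SCs than in Tom HF-SCs by 2.60 (adjusted p = 2.18e-04, limma). Of the 6 tested genes of membrane rupture and repair, Vps4b fell by 0.33 in Tom HF-SCs, and Ninj1, which carries out the final rupture of the membrane, passed in none of the 4 and was lower in GFP HF-SCs than in Tom HF-SCs by 0.76 (0.0164). Irf1, a factor that acts on interferon-responsive genes, rose by 0.72 in GFP HF-SCs and by 0.78 in Tom HF-SCs and fell by 0.76 in Tom b-KCs, and Irf2 passed in none. Dfna5, the older symbol of Gsdme, fell by 0.47 in Tom b-KCs (0.0433).

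**Figure D5:**
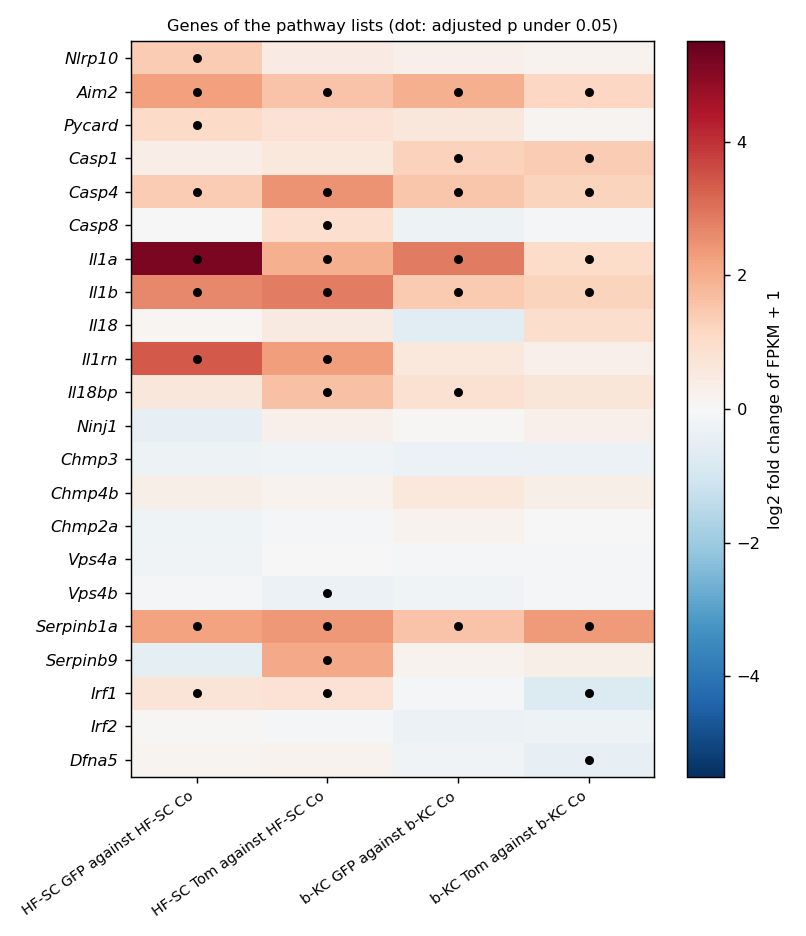
Log2 fold change of FPKM + 1 (colour) of tested pathway genes (vertical axis) in the 4 comparisons with Co (horizontal axis), where a dot marks an adjusted p under 0.05 in limma. Aim2, Casp4, Il1a, Il1b and Serpinb1a carry a dot in all 4 columns, and the membrane rupture and repair genes carry 1 dot in all.

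Genes next to the clusters in the annotation had changes of their own. Fam49b, 26.2 kb beyond Gsdmc4, rose in all 4 populations by 0.73, 0.64, 0.90 and 1.07, much less than Gsdmc. Psmd3, 4.8 kb beyond Gsdma, rose by 0.50 in GFP HF-SCs and 0.43 in Tom HF-SCs, and Csf3, 23.6 kb beyond Gsdma and coding for the neutrophil growth factor G-CSF, rose by 1.69, 5.02, 1.37 and 2.02 in the 4 populations in the same order. Ormdl3, on the other side of that cluster, fell by 0.52, 0.97, 0.43 and 0.74. Beside Gsdmd, Zc3h3 passed in none of the 4 and Naprt1 fell by 0.57, 0.56 and 0.49 in GFP HF-SCs, Tom HF-SCs and GFP b-KCs. Eef1d, 27.4 kb beyond Gsdmd and coding for a translation elongation factor subunit, rose by 0.63 in Tom HF-SCs, 0.76 in GFP b-KCs and 0.91 in Tom b-KCs. Asap1, 185.6 kb beyond Gsdmc4, rose by 0.71 in GFP HF-SCs and 0.38 in Tom HF-SCs.

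Promoter sequence from RefSeq (GRCm38.p6, 250 bases before to 50 after the start) was at hand for Gsdma3 and Gsdmc3, and both are shown because the deleted genes code for subunits of AP-1, a factor that binds promoter DNA. Gsdma3 (chr11:98626099-98626398, plus strand) and Gsdmc3 (chr15:63878509-63878808, minus strand) read as follows, 5′ to 3′ on the strand of the gene.
Gsdma3: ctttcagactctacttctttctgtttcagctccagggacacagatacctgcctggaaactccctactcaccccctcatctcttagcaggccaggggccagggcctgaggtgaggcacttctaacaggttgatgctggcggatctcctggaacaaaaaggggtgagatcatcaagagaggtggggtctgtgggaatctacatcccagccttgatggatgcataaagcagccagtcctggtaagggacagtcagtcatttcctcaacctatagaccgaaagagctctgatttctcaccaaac
Gsdmc3: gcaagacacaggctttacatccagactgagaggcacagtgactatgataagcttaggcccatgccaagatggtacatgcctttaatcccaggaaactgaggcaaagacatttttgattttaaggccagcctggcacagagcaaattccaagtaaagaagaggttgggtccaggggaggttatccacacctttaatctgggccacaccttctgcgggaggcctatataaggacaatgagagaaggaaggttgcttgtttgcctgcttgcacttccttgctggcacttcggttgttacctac

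Neither window holds TGANTCA, the AP-1 motif, TTCNNNGAA, the STAT motif, or TATAAA, one spelling of the TATA box, on either strand, so no base is set in capitals. Other spellings of these motifs were not searched. Of 32851 promoters of the same length, 7.8%, 8.3% and 13.6% hold them. Gsdma, Gsdma2, Gsdmc, Gsdmc2, Gsdmc4 and Gsdmd had no promoter entry.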

How the data were processed

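Polyadenylated RNA of 18 sorted ear skin cell libraries (SMART-Seq v4 and Nextera XT, no strand information) was analysed. The authors aligned 51-base single-end reads with TopHat 2.0.10 and Bowtie 1.0.0 to NCBI37/mm9, allowing 2 mismatches and 20 multihits, and used Cufflinks (2.2.1 in the submitters' processing notes, which also name GRCm38 and mm10 without a role) for the deposited table, which gives each gene as FPKM in every library. Reads of near-identical paralogs and overlapping genes are therefore uncertain.

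Genes that reached 1 FPKM in 3 or more of 18 libraries (12751) were tested with limma 3.58.1 (R 4.3.3) on log2(FPKM + 1), a pseudocount of 1, with a mean per group, a trend and Benjamini-Hochberg adjustment over all those genes within a comparison. A gene passed at an adjusted p under 0.05. FPKM are not counts, so no count test was run, and the Cufflinks test cannot be repeated from them. The step was first tested on simulated data.

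Stricter limits (adjusted p under 0.01 and a log2 change of 2 or more), a pseudocount of 0.1, no filter, rescaled libraries, no trend, only the groups compared, the mouse as a block and each mouse left out were the alternatives. Samples were grouped by their labels. The mouse numbers in the labels pair the libraries of a mouse. The correlation of the deviations of a mouse's libraries from their group means, over 12751 genes, was 0.59, 0.08 and 0.43 for HF-SC GFP and Tom, 0.24, 0.67 and 0.69 for b-KC GFP and Tom and 0.32, 0.31 and 0.20 for Co. Steps between the low FPKM of 7744 genes with 1 transcript gave the depth, and 75.6% to 80.8% of those values lay within 0.1 of a whole read. Floors of 3 reads hold for counting error alone, as PCR copies were not marked.

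The members, lists, tests and motifs were chosen with earlier results of these data known. Named genes are the 8 members, pathway genes that passed or lead their list, the 3 most similar genes per tested member, cluster neighbours, Jun and Junb and cell type markers. Coding sequences (GENCODE M1, NCBIM37) were aligned with MAFFT 7.526. Plots were made with Python 3.11.15, pandas 2.3.3 and matplotlib 3.10.9. Protein sequences were not used here. A pathway gene and a similar gene are not reported here by name, though counts include the former. P-values measure the spread between the libraries of a group, each from another mouse. The main fit takes libraries of the same mouse as independent.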

Additional observations from a re-analysis of the deposited data

How the results depend on the processing

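Gsdmc and Gsdmc2 passed as higher than Co in all 4 comparisons under each of the alternatives run, including the stricter limits, with log2 changes from 3.50 to 6.99. The counts of members that passed moved more, and the causes were not tested. The stricter limits gave 3 in GFP HF-SCs, 2 in Tom HF-SCs and 2 in Tom b-KCs against Co, and 0 for GFP HF-SCs against Tom and for Co HF-SCs against Co b-KCs. For GFP HF-SCs against Tom (2 members), a pseudocount of 0.1, no filter and the fixed replicate block left 1 and a fit of the groups compared 0. For Co HF-SCs against Co b-KCs (2), they were 4 with a pseudocount of 0.1 and 5 with the groups compared and with the fixed block. With the block, GFP b-KCs against Tom went from 0 to 1, and with the random block the difference in change to GFP went from 0 to 2, while a fit of the groups compared gave 1. The random block also let Gsdmc pass between Co HF-SCs and Co b-KCs (adjusted p = 0.0453, limma), and the blocks changed no call beyond those named here and in the report.

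With 1 mouse left out, counts ranged from 2 to 5 for GFP HF-SCs, 2 to 5 for Tom HF-SCs, 2 to 6 for GFP b-KCs and 3 to 5 for Tom b-KCs against Co, 0 to 4 for GFP against Tom in HF-SCs and 0 to 4 in b-KCs, 1 to 2 for Co HF-SCs against Co b-KCs, and 0 to 3 for the differences in change to GFP and to Tom. Counts above those with all mice came without 817, whose values of the tested members were the lowest.

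Directions that turned were of differences that did not pass. With a pseudocount of 0.1, Gsdmc3 in GFP HF-SCs against Tom went to 0.14, and the difference in change between HF-SCs and b-KCs went to 0.77 for Gsdmc2 (GFP), 0.92 for Gsdmc (Tom) and 0.37 for Gsdmc2 (Tom). With 1 mouse left out, GFP HF-SCs against Tom ranged from -0.24 to 0.16 for Gsdmc3 (0.04 without 815) and from -0.20 to 0.54 for Gsdmc. Gsdma in GFP b-KCs against Co ranged from -0.0605 to 0.96, and Gsdma3 in Tom b-KCs against Co from -0.043 to 0.29. The difference in change to Tom ranged from -0.71 to 0.13 for Gsdmc and from -0.19 to 0.0127 for Gsdmd (0.008 without 817). Of 655 single-gene values, 558 kept direction and side of the threshold. Summed over copies, the Gsdmc group had 0.242 FPKM in Co HF-SCs and 58.2, 53.7 in GFP and Tom, and 2.03 in Co b-KCs and 94.2, 154 in GFP and Tom. Such sums still depend on the split of reads, since the copies differ in transcript length. Depth limits Gsdma2, Gsdmc4, the Co values of Gsdmc2 and Gsdmc3 and the Co HF-SC values of Gsdmc.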
